A study of Mus musculus with 5 samples.

Results

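The diacylglycerol kinases are the enzymes that phosphorylate diacylglycerol to phosphatidic acid. They were taken as the rows of the count table whose Ensembl identifiers map to the gene symbols of the family, which gave 10 genes of the 53700 gene IDs in the table. All 10 had counts in every library, and all 10 had an adjusted p in the test across genes. The family came into view through Dgkq, which the study followed up after it fell in these same libraries. Values of Dgkq are therefore given as a description and without a test, while the other 9 members belong to the family by name and were tested. Outside these libraries, the paper reports less Dgkq mRNA after deletion of Esrrg by PCR of midbrain homogenate. That PCR used another virus (AAV-hsynCre) than these libraries to delete Esrrg. The paper reports the same fall for dopaminergic neurons by in situ hybridization. It found no rise of Dgkq when Esrrg was overexpressed, and no change of Dgkq in dopaminergic neurons of mice given alpha-synuclein fibrils.

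The libraries hold ribosome-bound mRNA that was purified by BAC-TRAP, a method in which a tagged ribosomal protein, L10a fused to EGFP, is switched on by Cre recombinase and pulled down with an antibody. There were 3 libraries from L10a;Esrrg WT mice (replicates 2, 3 and 4) and 2 from L10a;Esrrg Flox mice (replicates 2 and 4), all C57BL/6 and aged 4 months, and each library came from a pool of mice. Both groups carried the tag and both received AAV:THCre in the midbrain, a virus with a tyrosine hydroxylase promoter in front of Cre, and the groups were set apart by the floxed Esrrg alleles of the Flox mice. Tissue was taken 1 month after injection, and the question was which transcripts of dopaminergic (DAergic) neurons differ after the loss of estrogen-related receptor gamma (ERRγ), the product of Esrrg. Only exon 2 of Esrrg is removed, and only in cells that the virus reaches and in which the promoter is active.

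Diacylglycerol is a membrane lipid that phospholipase C releases from phosphoinositides when receptors coupled to Gq proteins are stimulated. It recruits protein kinase C, protein kinase D, the Ras activators of the RasGRP family, the chimaerins and the vesicle priming proteins of the Munc13 family. Diacylglycerol kinases end this signal, and the phosphatidic acid that they make is the starting point for the resynthesis of phosphoinositides. The family is sorted into types by the regulatory domains that accompany a shared catalytic domain. Type I members (Dgka, Dgkb, Dgkg) bind calcium through EF hands, type II members (Dgkd, Dgkh, Dgkk) carry a pleckstrin homology domain, the type III member Dgke has the simplest structure and prefers arachidonoyl diacylglycerol, type IV members (Dgkz, Dgki) carry ankyrin repeats and a MARCKS-like region, and Dgkq is the type V member. Most members are expressed in the brain, and several act at synapses.

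Sequences upstream of the transcription start are shown for Dgkq, the member with the deepest fall, and for Dgkz, the one tested member that passed, because the deleted receptor binds DNA. They are RefSeq sequences of build GRCm38.p6, each the 250 bases before an annotated start, written 5′ to 3′ on the strand of the gene. Capitals mark AGGTCA, the half-site that nuclear receptors recognise, which was searched on both strands. The Dgkq sequence lies on the minus strand at chr5:108660831-108661080. Dgkz has starts on the minus strand with upstream sequence at chr2:91963564-91963813 and at chr2:91950349-91950598, the second of them downstream of the first.
Dgkq: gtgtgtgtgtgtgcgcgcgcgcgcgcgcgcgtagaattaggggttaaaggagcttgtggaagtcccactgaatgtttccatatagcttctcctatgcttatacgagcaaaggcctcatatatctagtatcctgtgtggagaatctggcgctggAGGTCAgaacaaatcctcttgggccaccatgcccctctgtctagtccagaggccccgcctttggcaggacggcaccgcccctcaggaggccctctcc
Dgkz, upstream start: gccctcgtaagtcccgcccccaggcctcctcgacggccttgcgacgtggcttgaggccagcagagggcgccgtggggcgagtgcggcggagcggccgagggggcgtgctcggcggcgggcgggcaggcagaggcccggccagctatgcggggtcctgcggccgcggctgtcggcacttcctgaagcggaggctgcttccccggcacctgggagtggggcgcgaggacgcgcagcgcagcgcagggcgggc
Dgkz, downstream start: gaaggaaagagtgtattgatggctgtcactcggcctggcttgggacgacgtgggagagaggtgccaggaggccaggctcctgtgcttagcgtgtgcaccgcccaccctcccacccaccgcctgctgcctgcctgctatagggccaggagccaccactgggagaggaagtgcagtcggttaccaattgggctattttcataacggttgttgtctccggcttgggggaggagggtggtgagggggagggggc
The Dgkq sequence held 1 match to AGGTCA, whose first base lay 97 bases before the start, and both Dgkz sequences held 0. Over the family, 2 of 16 such windows held a match, the other in a window of Dgka, against 4607 of 32851 windows of all genes. The extended element that ERR proteins bind, TNAAGGTCA, which contains the half-site, was found in 0 of the 16 windows of the family and in 1.14% of all windows. These matches describe letters in a short window and say nothing about binding. From a genome browser, the paper lists chromatin immunoprecipitation sites of a related receptor, ERRα, at human DGKQ, in the promoter and within the gene.

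The 5 libraries held between 20635855 and 23105058 assigned counts, and 3 counts, the limit that a count of 0 allows, corresponded to 0.130 to 0.145 CPM, far below every member. Esrrg itself had 1763, 1643 and 1726 normalized counts in WT replicates 2, 3 and 4 and 1504 and 1170.1 in Flox replicates 2 and 4, so that both Flox libraries were lower, but its log2 fold change of -0.35 (SE 0.13) did not pass the test (DESeq2 adjusted p = 0.0753). Such totals do not measure the loss of exon 2. Th, which marks DAergic neurons, had between 9849 and 12813 normalized counts across the 5 libraries, and the summed level of 11 DAergic markers ranged from 53196 to 62806 in WT and from 53893 to 56659 in Flox. Oligodendrocyte markers were present too, with sums of 113476 to 167659 in WT and 129818 to 155237 in Flox, and 1 of the 11 DAergic and 0 of 8 oligodendrocyte markers were lower past the threshold. GABAergic markers summed to between 32115 and 32519 in WT and to 31600 and 29546 in Flox, so that both Flox sums were lower, with 1 of 6 lower (Gad2) and 1 higher (Sst) past the threshold. Glutamatergic (4897 to 7365) and astrocyte markers (44091 to 67470) overlapped between the groups. The glutamatergic marker Slc17a7 varied widely within groups, with 2974, 2772 and 390 normalized counts in WT replicates 2, 3 and 4 and 2303 and 800 in Flox replicates 2 and 4. No marker of any list was at 0 in all 5 libraries, though the T lymphocyte marker Cd3g was at 0 in WT replicate 4. Microglial markers summed to between 1886 and 3677 in WT and to 6578 and 14703 in Flox, with 10 of 12 higher past the threshold, and Flox replicate 4 was the library with most of them. T lymphocyte markers summed to between 70.1 and 133.8 in WT and to 219 and 399 in Flox, with 1 of 7 past the threshold, and endothelial markers to between 145 and 313 in WT and to 336 and 737 in Flox, with 3 of 8 past it. The part of these cells in the results below was not tested. In such bulk samples, fewer cells of a type and less RNA per cell cannot be told apart.

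Of the 9 members other than Dgkq, 8 had a lower mean in Flox, and Dgkh had a higher one. Dgkq, whose fall brought the family into view, is left out of this count. A log2 fold change below 0 was found in 50.9% of all genes with an adjusted p and one above 0 in 49.1%. Apart from Dgkq, 1 of the 9 tested members passed, Dgkz, which was lower, and 0 were higher past the threshold. Across all 15724 genes with an adjusted p, 4.05% were lower and 4.2% higher at an adjusted p under 0.05 (DESeq2), 8.25% in either direction. At an unadjusted p under 0.05, 2 of the 9 were lower (Dgkz and Dgkk), against 10.6% of all genes. With a change of at least 1.5-fold as well, 0 of the 9 passed, against 1.41% of all genes that were lower and 1.77% that were higher. Both Flox libraries lay below all 3 WT libraries in 5 of the 9 (Dgkz, Dgkb, Dgkg, Dgka and Dgki), an arrangement found in 22.5% of all genes, and the reverse arrangement was found in 0 of the 9 and in 19.9% of all genes. The median log2 fold change of the 9 was -0.25, against -0.0063 over all genes with an adjusted p. The members were chosen with results of these libraries known, and they were read out in the same 5 libraries, so these counts describe the family and are not a test of it.

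**Figure D1:**
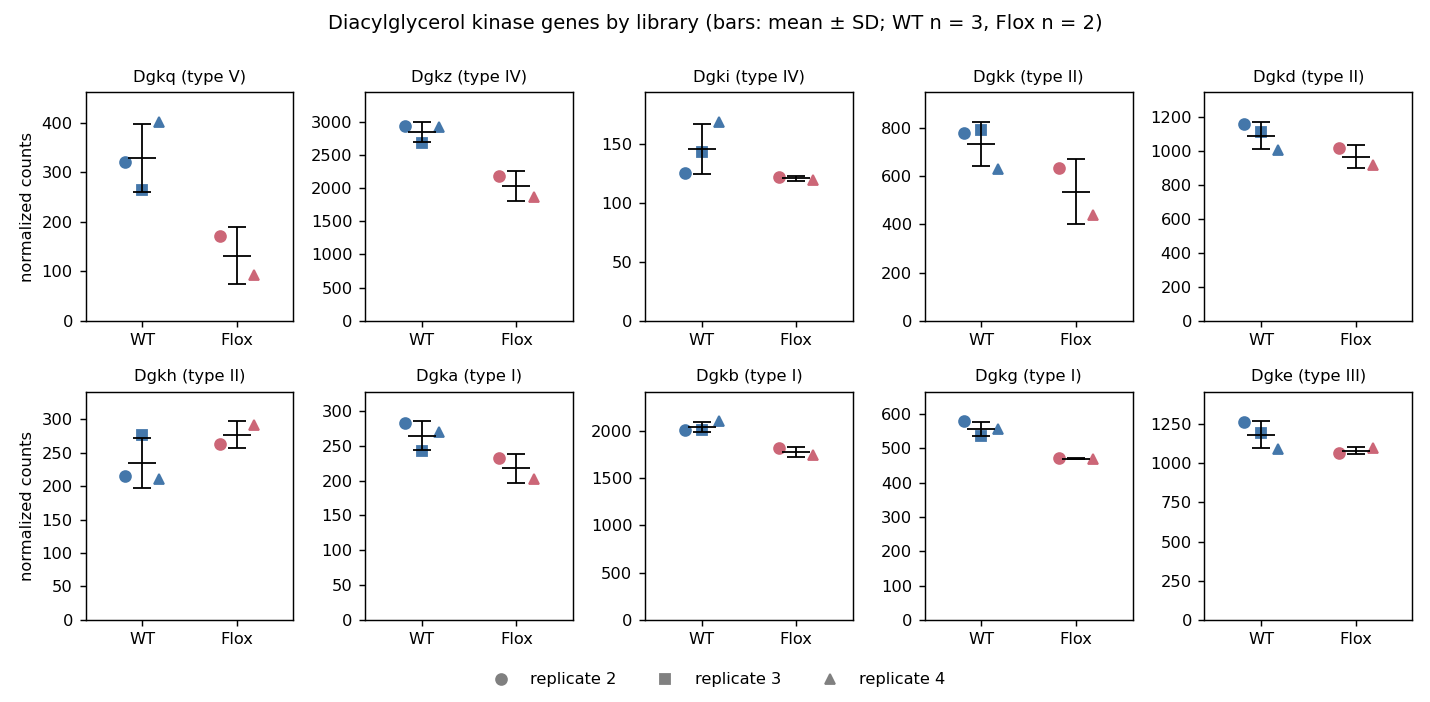
Normalized counts (y axis, from 0) of each of the 10 diacylglycerol kinase genes in the 3 WT (blue) and 2 Flox (red) libraries, with the marker shape for the replicate number and black bars for the mean ± SD. The Flox points of Dgkq (172 and 91.5) and Dgkz (2189 and 1868) sit below all WT points, while those of Dgke, Dgkd, Dgkk and Dgkh overlap with WT.

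Dgkq (ENSMUSG00000004815, chromosome 5), the type V kinase, had 321, 265 and 402 normalized counts in WT replicates 2, 3 and 4, and 172 and 91.5 in Flox replicates 2 and 4. Both Flox libraries were below the lowest WT library, and Flox replicate 4 was the lowest of all. The mean of 329 ± 68.7 across WT (SD, n = 3) stood against 132 ± 56.9 across Flox (SD, n = 2), and thus fell by 60.0%. The log2 fold change was -1.32 (SE 0.27). Its size depended on single libraries, moving to -0.94 when Flox replicate 4 was left out and to -1.85 when Flox replicate 2 was, and lying between -1.46 and -1.16 when a WT library was. WT replicate 4 and Flox replicate 4, which share a number, were the highest and the lowest library of this gene.

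The counts of Dgkq cover only part of the gene. In GENCODE release M21, 30.8% of its exon bases are also exon bases of genes on the opposite strand, namely 2090 bases of Tmem175 at its 3′ side and 124 bases of Idua. Strand was not used in counting, and reads that overlap more than 1 gene were set aside, so reads in these stretches would not count for any of the genes. For the other members the shared portion was between 0% (Dgkb, Dgki and Dgkk) and 4.82% (Dgkh). The neighbours of Dgkq were read as a check on the locus. Tmem175, a lysosomal potassium channel gene, had 416, 394 and 398 normalized counts in the WT libraries against 391 and 361 in the Flox libraries. Both Flox libraries were below every WT library, as in 22.5% of all genes, and the log2 fold change was -0.10 (SE 0.15, DESeq2 adjusted p = 0.807). Idua, which encodes the lysosomal enzyme alpha-L-iduronidase, had 387, 365 and 405 in WT against 348 and 423 in Flox, and its groups overlapped (-0.00069, SE 0.17, DESeq2 adjusted p = 0.999). Gak, a kinase of clathrin uncoating, was at -0.12 (SE 0.13, DESeq2 adjusted p = 0.716). The anion transporter gene Slc26a1 had few counts, with a mean of 33.4 ± 6.77 in WT and 21.8 ± 11.2 in Flox, and a log2 fold change of -0.61 (SE 0.52, DESeq2 adjusted p = 0.588). None of these 4 neighbours passed the test, and whether they differ from Dgkq was not tested.

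**Figure D2:**
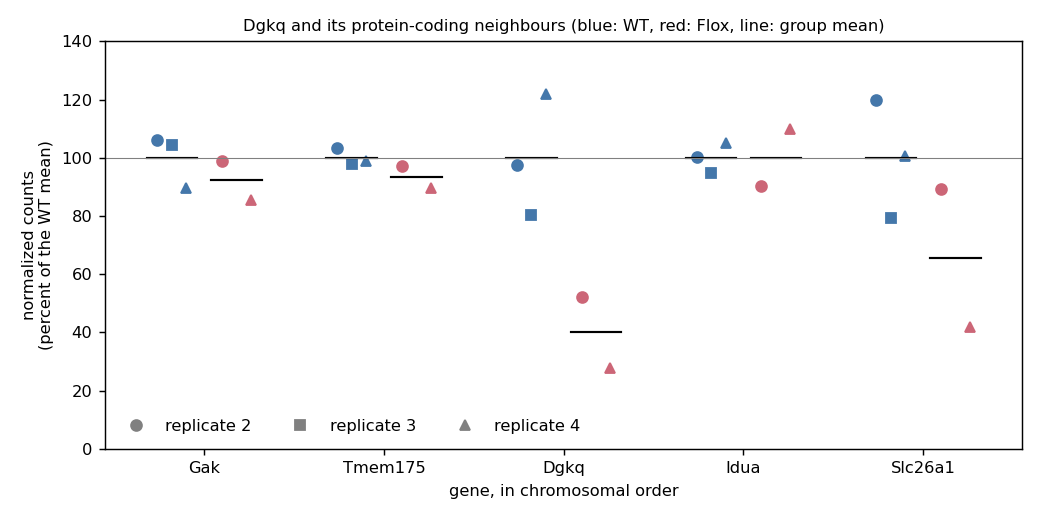
Normalized counts of Dgkq and the 4 nearest protein-coding genes, as a percentage of each gene's WT mean (y axis), by library (blue WT, red Flox, marker shape for the replicate number, line for the group mean). The Flox mean of Dgkq is 60.0% below that of WT, while Gak, Tmem175 and Idua stay near the WT mean and the sparse Slc26a1 scatters widely.

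The profiles nearest to that of Dgkq were those of Cysrt1, Tesk1, Spsb3, Sacm1l and Atg9a. They were found by the Euclidean distance between log2 values centred on the WT mean over the 5 libraries, among 11521 genes with a mean of at least 100 normalized counts. Cysrt1, the nearest at a distance of 0.145, had 338, 284 and 412 normalized counts in the WT libraries against 172 and 104 in the Flox libraries, and Atg9a, which encodes a lipid scramblase of autophagy and is the fifth nearest, had 310, 271 and 404 and then 153 and 79.5. Sacm1l, a phosphoinositide phosphatase gene, had 506, 436 and 724 in WT against 265 and 175 in Flox. In each of these 3 genes WT replicate 4 was the highest library and Flox replicate 4 the lowest, as in Dgkq. The contrast between the groups and the order of the libraries within a group both enter this distance. The likeness is therefore no separate evidence of a fall or of that order.

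Dgkz (ENSMUSG00000040479, chromosome 2), a type IV kinase and the most abundant of the family, had 2944, 2680.1 and 2924 normalized counts in WT replicates 2, 3 and 4, and 2189 and 1868 in Flox replicates 2 and 4. The groups did not overlap, and Flox replicate 4 was again the lower of the Flox libraries. Dgkz fell by 28.8% in the mean, from 2849 ± 147 (SD, n = 3) to 2029 ± 227 (SD, n = 2), with a log2 fold change of -0.49 (SE 0.12, DESeq2 adjusted p = 0.00148). The change was smaller than 1.5-fold. The direction held in all 11 alternatives and the call in 8 of them, over which the adjusted p ran from 7.0e-04 to 0.249. The call was lost without Flox replicate 4 (log2 fold change -0.38, DESeq2 adjusted p = 0.249) and without WT replicate 2 (-0.47, DESeq2 adjusted p = 0.0693), and it was just missed in edgeR's quasi-likelihood test (adjusted p = 0.0502). Dgki (ENSMUSG00000038665, chromosome 6), the other type IV kinase, had 125, 143 and 168 normalized counts in the WT libraries against 122 and 119 in the Flox libraries. Its Flox libraries lay just under the lowest WT library, and its log2 fold change of -0.27 (SE 0.24) did not pass (DESeq2 adjusted p = 0.613).

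Among the type II kinases, Dgkk (ENSMUSG00000062393, X chromosome) had 781, 791 and 629 normalized counts in the WT libraries against 632 and 439 in the Flox libraries. Flox replicate 4 was well below all other libraries, whereas Flox replicate 2 was level with WT replicate 4, so the groups overlapped. The log2 fold change of -0.45 (SE 0.18) was close in size to that of Dgkz but did not pass (DESeq2 adjusted p = 0.105). Of the 9 tested members it moved most when single libraries were left out, lying at -0.22 without Flox replicate 4 (DESeq2 adjusted p = 0.942) and at -0.74 without Flox replicate 2, where it passed (DESeq2 adjusted p = 0.00688), as it also did without WT replicate 4 (-0.56, DESeq2 adjusted p = 0.0401). Dgkd (ENSMUSG00000070738, chromosome 1) had 1159, 1112 and 1005 in WT against 1018 and 919 in Flox, with overlapping groups and a log2 fold change of -0.17 (SE 0.13, DESeq2 adjusted p = 0.499). Dgkh (ENSMUSG00000034731, chromosome 14) was the only member with a higher mean in Flox, with 216, 277 and 210.4 normalized counts in the WT libraries against 263 and 291 in the Flox libraries. WT replicate 3 lay between the Flox libraries, and the log2 fold change of 0.24 (SE 0.20) did not pass (DESeq2 adjusted p = 0.567).

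None of the type I kinases passed. Dgkb (ENSMUSG00000036095, chromosome 12), the most abundant of the 3, had 2008, 2015 and 2101 normalized counts in the WT libraries against 1818 and 1743 in the Flox libraries. The groups were apart and the libraries within a group were close together, with means of 2041 ± 52.0 (SD, n = 3) and 1780.1 ± 52.9 (SD, n = 2), yet the log2 fold change of -0.20 (SE 0.10) did not pass (DESeq2 adjusted p = 0.263). Dgkg (ENSMUSG00000022861, chromosome 16) had 578, 537 and 556 in WT against 471 and 468 in Flox, with a log2 fold change of -0.25 (SE 0.14, DESeq2 adjusted p = 0.315). Dgka (ENSMUSG00000025357, chromosome 10) had 282, 243 and 270.0 in WT against 232 and 203 in Flox, with a log2 fold change of -0.28 (SE 0.19, DESeq2 adjusted p = 0.432). In all 3 type I genes the Flox libraries were below every WT library, as in Dgkz and Dgki and in 22.5% of all genes. Dgka and Dgkz are also the principal isoforms of T lymphocytes, whose summed markers were higher in Flox. What these cells contributed to the counts of either gene was not tested. The type III kinase Dgke (ENSMUSG00000000276, chromosome 11) had 1260.0, 1195 and 1092 in WT against 1065 and 1095 in Flox. WT replicate 4 and Flox replicate 4 were level, and the log2 fold change was -0.13 (SE 0.12, DESeq2 adjusted p = 0.628), the smallest of the family.

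**Figure D3:**
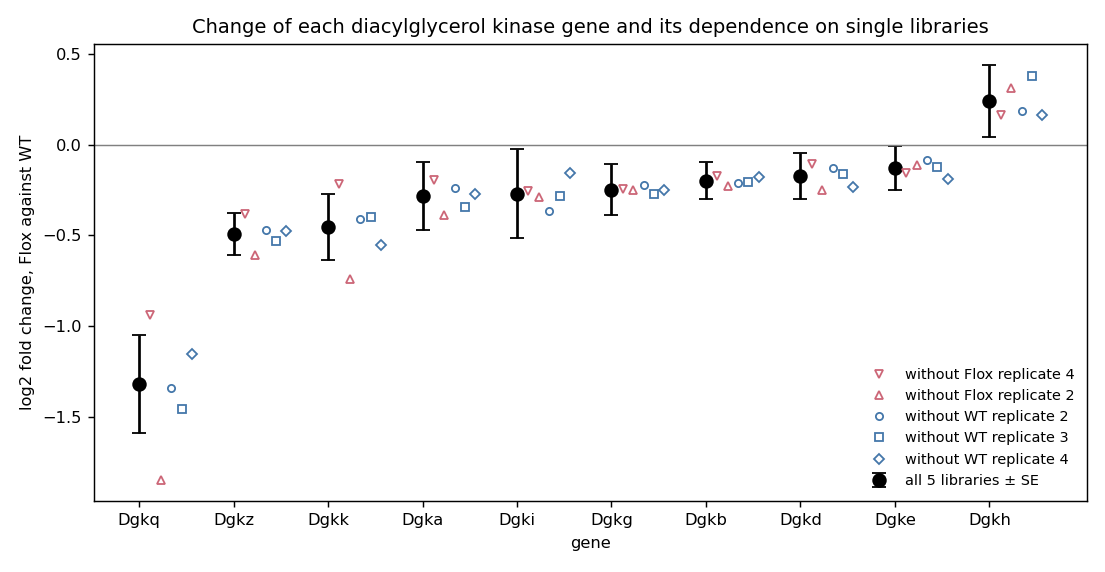
Log2 fold change of Flox against WT (y axis) for each diacylglycerol kinase gene, with the fit to all 5 libraries as black points ± SE and the fits without 1 library as open symbols (red for Flox, blue for WT). Every gene keeps its side of 0, and Dgkq (-1.85 to -0.94) and Dgkk (-0.74 to -0.22) move most when a Flox library is left out.

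Levels were then compared between members in CPM (counts scaled to the assigned total of the library) per kilobase of exon, a scale that corrects for gene length. In WT, Dgkz stood first at 20.8 ± 0.87 (SD, n = 3), which was 2.53 times the level of Dgkb at 8.22 ± 0.10. Dgkd followed at 7.31 ± 0.62, Dgke at 6.47 ± 0.54 and Dgkk at 4.70 ± 0.65. Dgkg was at 2.76 ± 0.099, Dgka at 2.55 ± 0.18 and Dgkq at 2.10 ± 0.40, and Dgki (1.07 ± 0.14) and Dgkh (0.634 ± 0.11) were the lowest. The WT libraries of neighbours in this order overlapped for Dgkd and Dgke, for Dgkg and Dgka, and for Dgka and Dgkq, and were apart for the rest. With the longest transcript in place of all exons as the length, Dgkz, Dgkb and Dgkd kept the first 3 places and Dgkq, Dgki and Dgkh the last 3, while Dgkg moved from the sixth place to the fourth. Over only those exon bases that no other gene shares, an alternative added after the data were seen, Dgkq stood at 3.03 ± 0.58 and in the sixth place, ahead of Dgkg (2.78 ± 0.10) and Dgka (2.61 ± 0.18), with WT libraries that overlapped those of Dgkg.

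On this scale the 10 genes summed to 58.6, 56.0 and 55.3 in WT replicates 2, 3 and 4, and to 46.9 and 40.5 in Flox replicates 2 and 4. The summed level averaged 56.6 ± 1.72 for WT (SD, n = 3) against 43.7 ± 4.58 for Flox (SD, n = 2), and both Flox libraries were below the WT libraries. Dgkz made up 36.8% of this sum in WT and 33.1% in Flox, and Dgkq 3.71% and 1.85%. No test was made of the sum, since the members were chosen with these values known.

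**Figure D4:**
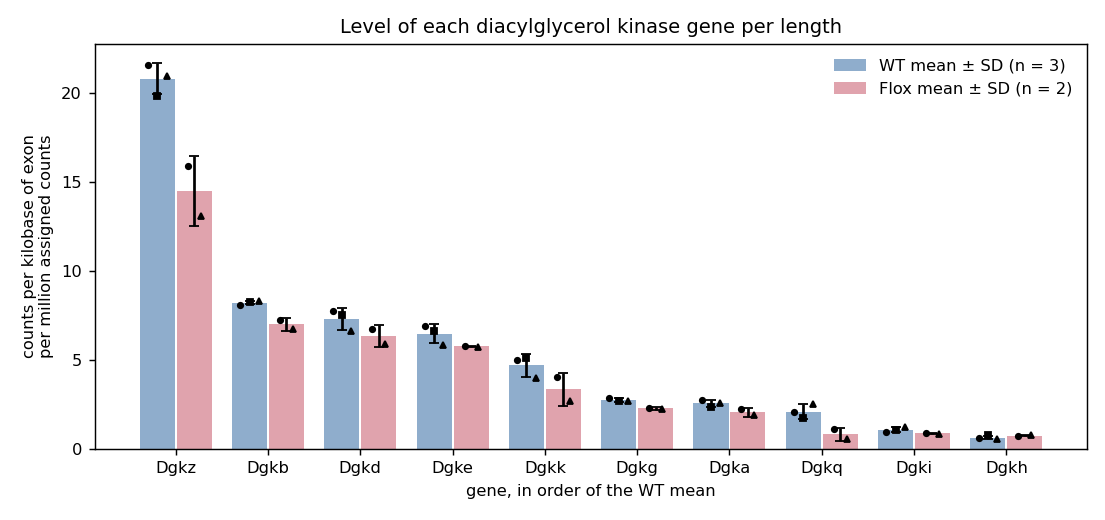
Level of each diacylglycerol kinase gene in CPM per kilobase of exon (y axis, from 0), in order of the WT mean, with bars for the mean ± SD (blue WT, red Flox) and black symbols for single libraries. Dgkz is at 20.8 in WT and no other member exceeds 8.22.

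A list of 84 further genes, chosen by function, was read in the same fit. It held phospholipases C, Gq proteins and receptors coupled to them, diacylglycerol effectors, lipases, and phosphatidic acid phosphatases with phospholipases D. Genes of phosphoinositide resynthesis and related lipid kinases were on it too, so the list is wider than the enzymes that act on diacylglycerol itself. Of the 82 with an adjusted p, 6 were lower past the threshold (7.32%, against 4.05% of all genes) and 0 were higher (against 4.2%). At an unadjusted p under 0.05, 13 were lower (15.9%, against 10.6% of all genes) and 2 higher (2.44%, against 9.74%). The median log2 fold change of the list was -0.095. The 6 genes were Pip5k1c, Cds1 and Pitpnb of phosphoinositide resynthesis, the receptors Htr2c and Chrm5, and Cerk. Both Flox libraries were below all WT libraries in 28 of the 82 (34.1%, against 22.5% of all genes), the 6 among them. The reverse was found in 10 of the 82 (against 19.9% of all genes). The 6 were picked by their fall in these same libraries, so their arrangement is no separate evidence. With edgeR only Pitpnb passed (adjusted p = 0.0444), without Flox replicate 4 none of the 6 passed, and without WT replicate 2 only Pip5k1c and Pitpnb did. Cds1 also lost its call without WT replicate 3 (DESeq2 adjusted p = 0.0536), and Htr2c without WT replicate 4 (0.0520) and with the exon length trend removed (0.0570). Without Flox replicate 2, Mgll (0.53, DESeq2 adjusted p = 0.00440) and Hcrtr1 (-1.03, DESeq2 adjusted p = 0.00359), which did not pass here, passed.

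The steps that lead from phosphatidic acid back to phosphoinositides held 3 of the 6 (18.8% of 16 genes, against 4.05% of all genes lower). The role groups are small and were chosen with earlier results known, so such shares describe them and are not a test. Pip5k1c, a kinase that makes phosphatidylinositol 4,5-bisphosphate at synapses, had 4127, 4046 and 3548 normalized counts in the WT libraries against 2895 and 2290.4 in the Flox libraries. It fell by 33.6%, with a log2 fold change of -0.59 (SE 0.13, DESeq2 adjusted p = 5.2e-04). Cds1, which turns phosphatidic acid into CDP-diacylglycerol, had 2962, 3139 and 2804 in WT against 2295 and 1991 in Flox, with a log2 fold change of -0.47 (SE 0.11, DESeq2 adjusted p = 0.00212). Pitpnb, a phosphatidylinositol transfer protein gene, had 467, 513 and 576 in WT against 340.1 and 283 in Flox, with a log2 fold change of -0.73 (SE 0.17, DESeq2 adjusted p = 9.7e-04). In all 3 genes Flox replicate 4 was the lowest library. The other 13 of these 16 genes did not pass, among them the most abundant, Pitpna (-0.26, SE 0.096, DESeq2 adjusted p = 0.0677) and Cds2 (-0.075, SE 0.11, DESeq2 adjusted p = 0.784), and the median of the 16 was -0.12.

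Upstream of diacylglycerol, 2 of 17 genes for Gq proteins and receptors coupled to them passed, both lower (11.8%, against 4.05% of all genes). Chrm5, the muscarinic receptor typical of midbrain DAergic neurons, had only 24.2, 29.6 and 47.1 normalized counts in the WT libraries against 7.69 and 7.95 in the Flox libraries. The groups did not overlap, and the log2 fold change was -2.11 (SE 0.62, DESeq2 adjusted p = 0.0158). At these low counts the call did not survive the omission of any single library: the DESeq2 adjusted p was 0.0693 without WT replicate 2, 0.0867 without WT replicate 3 and 0.102 without Flox replicate 2, and no adjusted p was given without WT replicate 4 or Flox replicate 4. The serotonin receptor gene Htr2c had 2225, 2039 and 2346 in WT against 1795 and 1478 in Flox, with a log2 fold change of -0.43 (SE 0.13, DESeq2 adjusted p = 0.0160). The most abundant genes of this group, Gnaq (0.12, SE 0.099, DESeq2 adjusted p = 0.569) and Gna11 (-0.036, SE 0.10, DESeq2 adjusted p = 0.909), which encode the G proteins themselves, did not pass. None of the 12 phospholipase C genes passed (0 at an unadjusted p under 0.05 in DESeq2), with a median of -0.11 and log2 fold changes of -0.097 for Plcb4 (SE 0.11) and 0.029 for Plcb1 (SE 0.12), the most abundant ones.

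Downstream, 0 of 21 genes for diacylglycerol effectors with an adjusted p passed (1 at an unadjusted p under 0.05 in DESeq2), and their median was 0.064. Prkce, a protein kinase C gene and the most abundant of the group, averaged 6195 ± 842 normalized counts over the WT libraries and 6474 ± 60.9 over the Flox libraries (log2 fold change 0.064, SE 0.13), and Chn1, a chimaerin gene, was at -0.11 (SE 0.10). The lipases that cleave diacylglycerol and its product numbered 4, and 0 passed (1 at an unadjusted p under 0.05 in DESeq2), with Mgll at 0.33 (SE 0.14, DESeq2 adjusted p = 0.124) and Dagla at -0.20 (SE 0.14, DESeq2 adjusted p = 0.452). Of 8 phosphatidic acid phosphatase and phospholipase D genes, 0 passed (0 at an unadjusted p under 0.05 in DESeq2), and the most abundant were Plpp3 (-0.32, SE 0.17, DESeq2 adjusted p = 0.273), which passed with the replicate number as a block (-0.45, DESeq2 adjusted p = 0.0370), and Lpin2 (-0.055, SE 0.13). Among the related lipid kinases, which share the catalytic fold, Cerk, the ceramide kinase gene, had 2897, 2699 and 2930.4 normalized counts in the WT libraries against 2262 and 1941 in the Flox libraries. It fell by 26.1%, with a log2 fold change of -0.44 (SE 0.11, DESeq2 adjusted p = 0.00479), and Sphk2, a sphingosine kinase gene, was at -0.14 (SE 0.12, DESeq2 adjusted p = 0.589). Rasgrp4 and Cerkl had counts but no adjusted p.

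**Figure D5:**
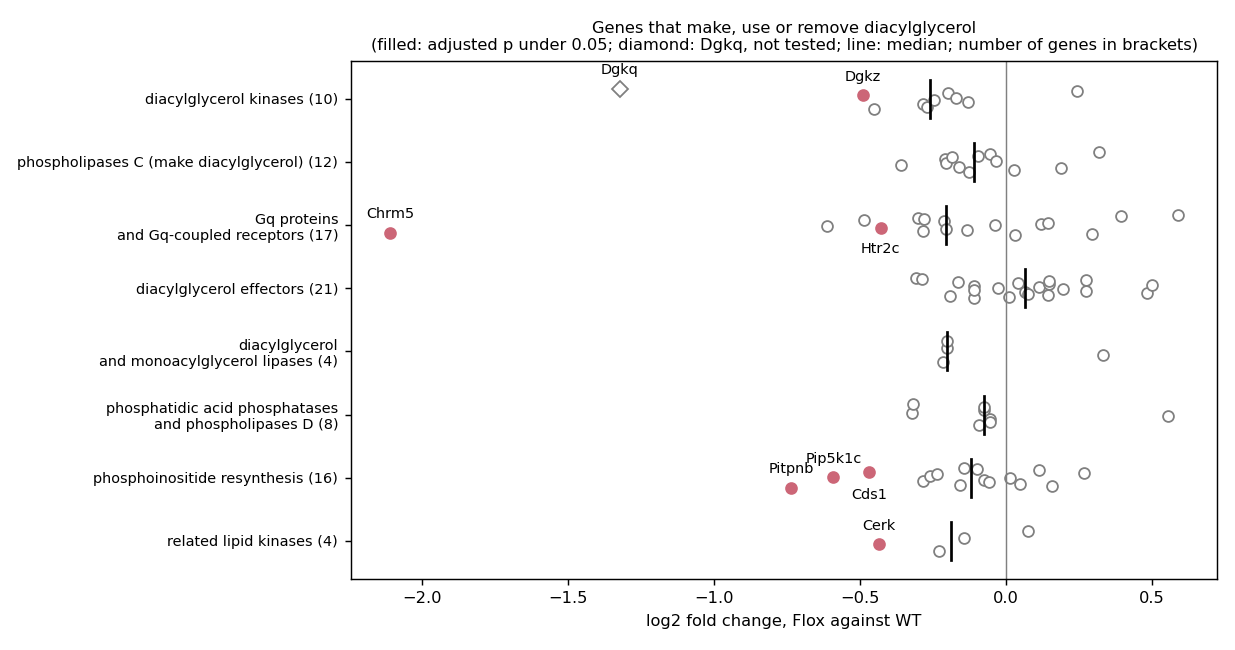
Log2 fold change of Flox against WT (x axis) for the diacylglycerol kinases and for the 82 tested genes of 7 role groups (rows, with the number of genes in brackets), with filled points for an adjusted p under 0.05 (DESeq2), a diamond for Dgkq, which was not tested, and a black line for the median of each row. The filled points are all to the left of 0, from -2.11 (Chrm5) to -0.43 (Htr2c).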

How the data were processed

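Ribosome-bound mRNA of 3 WT and 2 Flox pools was sequenced from poly(A)-selected libraries without strand information. The authors trimmed reads with Trim Galore (version 0.6.6), aligned them with STAR and deposited raw counts per gene from HTSeq. The submitters' processing notes give STAR version 2.7.9a, HTSeq version 0.11.3 and build GRCm39, whereas the methods name GRCm38, so no coordinates of the counted genes are given, and those of the upstream windows are RefSeq's own. Reads that fell on more than 1 gene, which were not assigned, made up 5.62% to 5.78% per library. Identifiers were matched without their version to GENCODE release M21 (97.1% named), which also gave exon lengths and overlaps. Upstream sequences came from RefSeq (GRCm38.p6), where all 10 members matched, with 16 windows.

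The 29407 genes with a count were tested with DESeq2 (version 1.42.0, R version 4.3.3) by a two-sided Wald test with independent filtering and Benjamini-Hochberg adjustment over all genes. Genes passed below an adjusted p of 0.05. Division of counts by the DESeq2 size factors gave the normalized counts. The fit was tested on simulated data. Alternatives were edgeR (version 4.0.16), TMM library sizes, a filter of 10 counts in 2 libraries, removal of GC or exon length trends, the replicate number as a block, each library left out and, for levels, the longest transcript or, added after the data were seen, the unshared exon bases as length. Limits cover counting error only, and p-values measure the spread between these pools. No libraries were duplicates, with a chi-square per degree of freedom of at least 4.54 between replicates.

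Members, gene lists and tests were chosen with earlier results of these data known. The rule named the 10 kinases, Esrrg, pathway genes that passed with at least a 1.5-fold change, the 2 most abundant of each role group, the neighbours of Dgkq and the 5 profiles nearest to it. Htr2c, Cds1, Hcrtr1, Rasgrp4, Cerkl and the markers Th, Gad2, Sst, Slc17a7 and Cd3g lie outside this rule and were chosen after their values were seen. Mice without Cre were not analysed here, and 1 gene of the pathway list is not reported by name.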

Additional observations from a re-analysis of the deposited data

How the results depend on the processing

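All 10 diacylglycerol kinases kept their direction in all 11 alternatives. Of 99 pairs of a tested member and an alternative, 94 left the call as it was, 3 lost that of Dgkz and 2 gained one for Dgkk. With edgeR 105 genes were lower and 170 higher, against 637 and 660 with DESeq2, and of the tested members 0 passed (4 of 9 were lower at an unadjusted p under 0.05, Dgkz, Dgkk, Dgkg and Dgkb, against 11.5% of all genes in edgeR) and 1 pathway gene was lower. Leaving out 1 library gave 39 to 807 genes lower and 33 to 778 higher, the fewest without Flox replicate 4 and the most without Flox replicate 2, with 142 and 201 without WT replicate 2, 303 and 338 without WT replicate 3, and 441 and 427 without WT replicate 4. It gave 0 to 2 tested members lower (0 without Flox replicate 4 or WT replicate 2, 2 without Flox replicate 2 or WT replicate 4). Pathway genes numbered 0 to 6 lower and 0 to 2 higher (the most without Flox replicate 2), and 1 was higher with the exon length trend removed. Esrrg ranged from -0.55 (passing without Flox replicate 2, DESeq2 adjusted p = 0.00582) to -0.19, and Dgkq from -1.85 to -0.94. The ratio of the highest to the lowest WT level was 32.8, and 44.4 with the longest transcript as length. The causes were not tested. Where a Flox library was left out, the lone one is assumed to vary like the WT libraries.

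With the replicate number as a block, 255 genes were lower and 221 higher, and Dgkz still passed (log2 fold change -0.54, DESeq2 adjusted p = 0.0105). The block ended the calls of Cds1 (DESeq2 adjusted p = 0.0501), Pitpnb (0.0751) and Chrm5 (no adjusted p) and added Plpp3 (-0.45, DESeq2 adjusted p = 0.0370). The groups share only the numbers 2 and 4, whose libraries deviated together weakly (r = 0.153 and 0.126 across 12846 genes, which are not independent replicates). With 2 Flox libraries the crossed pairs give the same values with a minus sign. The first principal component (51.0% of the variance) had WT replicate 4 (-41.5) and Flox replicate 4 (47.7) at its opposite ends. The second (25.1%) set WT replicate 4 (-29.8) and Flox replicate 4 (-22.1) apart from the rest. WT replicates 2 and 3 were at 19.2 and 17.9 and Flox replicate 2 at 14.8. The numbers were not taken as pairs, and what the replicate 4 libraries share was not tested.

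With 2 Flox pools, a difference that misses the threshold does not show equal levels, and Flox replicate 4, the library with most microglial markers, decided many calls. Dgki had the fewest counts of the members.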
